A study of Mus musculus with 16 samples.

Results

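The genes described here are 10 of the cyclins and cyclin-dependent kinases (CDKs) that drive the mouse cell cycle. The cyclins are the D-type *Ccnd1*, *Ccnd2* and *Ccnd3*, the E-type *Ccne1* and *Ccne2*, and *Ccna2*, *Ccnb1* and *Ccnb2*. The kinases are *Cdk1* and *Cdk2*. They were chosen by gene symbol, and each symbol matched 1 of the 47069 genes in the count table. RNA-seq was performed on BMMs, macrophages grown from the bone marrow of wild type C57BL/6 mice aged 8 to 10 weeks. The BMMs were harvested on day 7 of culture, primed overnight with IFNγ (10 ng/mL), and activated for 1 hr with LPS (100 ng/mL) together with immune complexes of ovalbumin and rabbit IgG (LPS/ICs). The cells of 1 group received 25 μM DAPT, a gamma-secretase inhibitor (GSI) that blocks the cleavage of Notch receptors, and those of the other group received the vehicle DMSO at 0.01%. All libraries carried the IFNγ, LPS and IC treatments, so resting macrophages were not part of the comparison.

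Each group had 2 libraries, and each library was the sum of 4 sequencing columns. The DMSO libraries held 42694655 and 56932059 counts, and the DAPT libraries were between them at 48483661 and 49511733. A count of 3, the smallest taken as detection, corresponded to 0.0527 to 0.0703 CPM (counts scaled to the library total, with TMM factors for the genes described) in these libraries, and this limit covers counting error only. No source says whether the 2 libraries of a group came from separate cultures or animals, so the p-values measure the spread between these libraries. The edgeR fit also draws on the spread of other genes to estimate that of each gene, so a p-value does not rest on the gene's own libraries alone. The 10 macrophage markers summed to 12782 and 12992 CPM with DMSO and to 10037 and 10895 CPM with DAPT. *Lyz2* was the largest part of these sums, at 5402 CPM on average with DMSO and 4601 CPM with DAPT. *Csf1r*, the receptor for the macrophage growth factor M-CSF, was among the 6 of these markers that fell, and *Mertk* was the 1 that rose. The other 3 were not called: *Spi1* (367 and 366 CPM on average with DMSO and DAPT), *Cd68* (970 and 1100) and *Cebpb* (139 and 149). The 10 genes of erythroid and mast cells summed to at most 0.141 CPM in any library.

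Cyclins are regulatory subunits that are made and destroyed in turn, and a CDK is active only while a cyclin is bound to it. D-type cyclins link growth factor signals to Cdk4 and Cdk6, which begin the phosphorylation of the retinoblastoma protein and so free the E2F transcription factors. E-type cyclins with Cdk2 carry the cell into DNA replication, cyclin A2 acts in S phase and G2, and B-type cyclins with Cdk1 bring about mitosis. BMMs grown in M-CSF divide in culture, and M-CSF induces *Ccnd1* in them. IFNγ and LPS are known to arrest their growth. In bulk RNA, fewer cycling cells and less mRNA per cycling cell cannot be told apart.

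Promoters of the late cell cycle genes are known for binding sites of the E2F factors, for CCAAT boxes that bind NF-Y, and for the cell cycle genes homology region (CHR) that binds the MuvB complex. RefSeq windows of 300 bases, from 250 before to 50 after a gene start on GRCm38.p6, were at hand for 6 of the 10 genes, namely *Ccnb1*, *Ccnb2*, *Ccnd3* (2 windows), *Ccne1*, *Cdk1* and *Cdk2*. The windows of 3 genes whose mRNA fell together with DAPT (*Ccnb2*, *Cdk1* and *Ccnb1*) and of the 1 member that rose (*Ccne1*) are printed 5′ to 3′ on the strand of the gene. Capitals mark every match to the searched letters. The windows lie at chr9:70421505-70421804, chr10:69352863-69353162, chr13:100786437-100786736 and chr7:38107441-38107740, in the order of the lines, and all 4 genes are on the minus strand.
Ccnb2: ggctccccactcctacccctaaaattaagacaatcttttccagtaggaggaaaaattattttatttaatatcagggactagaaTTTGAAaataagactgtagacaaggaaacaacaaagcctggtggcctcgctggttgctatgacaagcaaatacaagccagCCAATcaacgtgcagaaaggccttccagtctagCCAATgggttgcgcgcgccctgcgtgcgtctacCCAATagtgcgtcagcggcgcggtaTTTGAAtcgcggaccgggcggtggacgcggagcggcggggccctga
Cdk1: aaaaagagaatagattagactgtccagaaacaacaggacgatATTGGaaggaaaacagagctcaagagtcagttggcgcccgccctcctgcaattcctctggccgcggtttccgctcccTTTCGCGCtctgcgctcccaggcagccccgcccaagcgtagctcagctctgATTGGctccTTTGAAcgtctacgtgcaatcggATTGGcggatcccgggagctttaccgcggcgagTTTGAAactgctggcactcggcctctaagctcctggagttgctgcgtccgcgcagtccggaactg
Ccnb1: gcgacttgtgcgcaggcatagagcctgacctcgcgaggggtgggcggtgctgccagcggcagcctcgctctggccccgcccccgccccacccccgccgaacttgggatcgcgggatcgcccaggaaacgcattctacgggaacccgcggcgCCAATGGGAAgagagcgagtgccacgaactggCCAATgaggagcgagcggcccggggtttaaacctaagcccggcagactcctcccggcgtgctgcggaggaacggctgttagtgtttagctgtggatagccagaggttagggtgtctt
Ccne1: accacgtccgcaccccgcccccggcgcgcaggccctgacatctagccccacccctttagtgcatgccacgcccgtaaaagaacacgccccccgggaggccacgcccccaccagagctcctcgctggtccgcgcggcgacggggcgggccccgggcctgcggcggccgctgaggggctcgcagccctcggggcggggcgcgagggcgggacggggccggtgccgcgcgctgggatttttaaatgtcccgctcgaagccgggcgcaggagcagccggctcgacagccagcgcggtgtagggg

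The letters searched on both strands were CCAAT, the CHR letters TTTGAA and TTCGAA, the E2F letters TTTCCCGC, TTTGGCGC, TTTCGCGC and TTTGCCGC, and TGGGAA, the core of the site of RBP-J, the DNA-binding protein of Notch signaling. Distances are from the RefSeq start of each window. In the printed windows this is not the start given by the GENCODE gene positions below, so a match may fall on the other side of that start. The *Ccnb2* window held CCAAT at 87, 54 and 21 bases before the start, and TTTGAA at 167 bases before it and at base 5 of the transcript. The *Cdk1* window held 3 CCAAT boxes on the other strand, at 208, 80 and 48 bases before the start. It also held TTTGAA at 71 and 15 bases and TTTCGCGC at 131 bases before the start. The *Ccnb1* window held CCAAT at 99 and 67 bases before the start, and a TGGGAA at 95 bases that shares its T with the first of them. None of these letters was found in the *Ccne1* window. Outside the printed windows, that of *Cdk2* held an E2F match at 140 bases and CCAAT at 45 bases before the start, and 1 of the *Ccnd3* windows held CCAAT at 108 bases before it.

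CCAAT was found in 5 of the 7 windows of these genes and in 37.4% of all 32851 RefSeq windows of this length. The CHR letters were in 2 of 7, against 19.2% of all windows, the E2F letters in 2 of 7, against 2.27%, and TGGGAA in 1 of 7, against 25.6%. The longer Notch letters GTGGGAA (6.38% of all windows), the CRE letters TGACGTCA (1.79%), the E-box CACGTG (7.15%) and the AP-1 letters TGAGTCA and TGACTCA (5.20%) were in none of the 7. These matches describe the sequence only.

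The comparison asked how these mRNAs differed between LPS/IC-activated BMMs given DAPT and those given DMSO. Gamma-secretase also cleaves membrane proteins other than Notch receptors, and the design cannot tell their part apart. With DAPT, 9 of the 10 genes were lower and 1, *Ccne1*, was higher, at a false discovery rate (FDR) under 0.05. The FDR is the p-value of edgeR's quasi-likelihood test after Benjamini-Hochberg adjustment over 13211 genes, a set to which all 10 genes belonged. Such calls were common in these libraries, with 40.8% of all tested genes past this FDR, 21.9% lower and 19.0% higher. Of the 10 genes, 2 (*Ccne2* and *Ccnb2*) also exceeded an absolute log2 fold change of 1.5, as did 2.91% of all tested genes. The DMSO and DAPT libraries of each of the 10 genes did not overlap, which was the case for 70.6% of all tested genes. The median log2 fold change was -0.74 over the 10 genes and 0.01 over all tested genes.

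**Figure D1:**
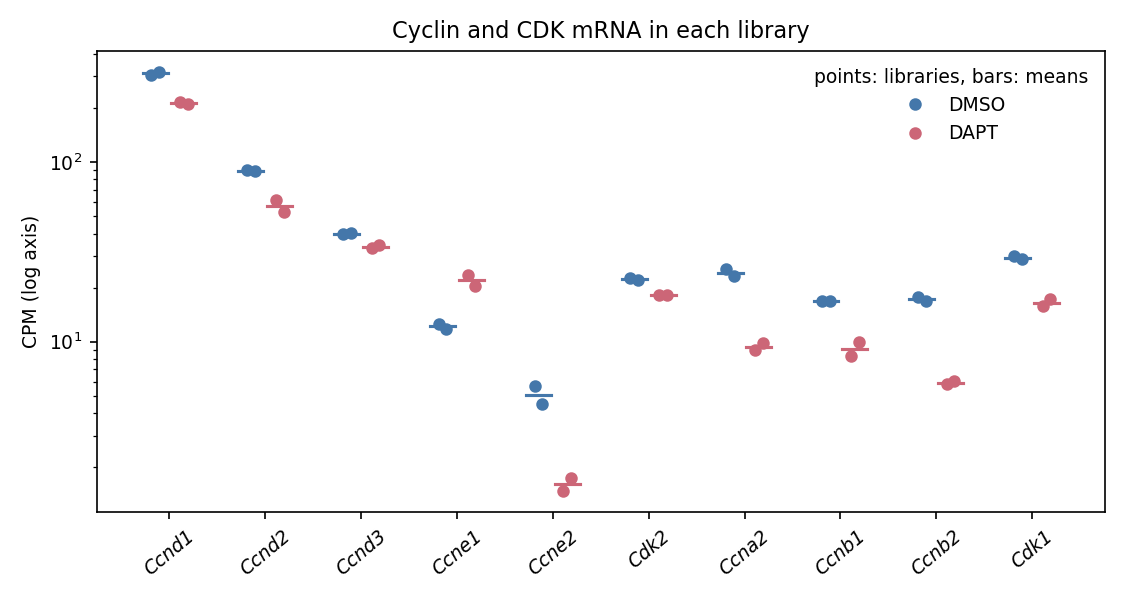
mRNA level of each gene in each library, in CPM on a log axis. Points are the 2 DMSO (blue) and 2 DAPT (red) libraries and short bars are the group means. The DAPT points lie below the DMSO points for 9 genes and above them for *Ccne1*, which is between 11.8 and 12.5 CPM with DMSO and between 20.5 and 23.5 CPM with DAPT.

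All 3 D-type cyclins were lower with DAPT. *Ccnd1* (7:144929931-144939925, GRCm38, minus strand), the growth factor-induced cyclin that opens G1, was at 305 and 318 CPM with DMSO and at 215 and 211 CPM with DAPT. Replicates of *Ccnd1* were close to each other, and both DAPT libraries were lower by about the same amount. This gave a log2 fold change of -0.55 (SE 0.0695, FDR 2.39e-06), a level 31.7% lower.

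*Ccnd2* (6:127125162-127152193, minus strand), a D-type cyclin of many blood cells, was at 90.2 and 89.1 CPM with DMSO and at 61.5 and 52.4 CPM with DAPT. The DAPT libraries of *Ccnd2* stood further apart than the DMSO libraries, yet both were well below them. With a log2 fold change of -0.65 (SE 0.0790, FDR 1.36e-06), *Ccnd2* was 36.4% lower.

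*Ccnd3* (17:47505051-47599691, plus strand), the third D-type cyclin, moved least of the 10 genes. It was at 39.6 and 40.4 CPM with DMSO and at 33.4 and 34.3 CPM with DAPT, a log2 fold change of -0.24 (SE 0.0745, FDR 0.0144). The call was lost when either of 2 libraries was left out. The FDR rose to 0.0778 without DMSO replicate 2 and to 0.0610 without DAPT replicate 1, in edgeR fits where the lone library was assumed to vary like the other group.

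The sum of the 3 D-type cyclins was 441 ± 9.55 CPM with DMSO and 304 ± 8.94 CPM with DAPT (SD, n = 2), or 31.2% lower. *Ccnd1* made up 82.4% ± 0.465 of the D-type counts per kb of exon with DMSO and 82.0% ± 0.696 with DAPT (SD, n = 2), a difference within the spread of the replicates. Per kb of the longest coding transcript, a length chosen after the data were seen, its share was 71.6% ± 0.538 and 69.5% ± 0.298, and the groups did not overlap. *Ccnd3* made up 5.68% ± 0.0625 of the D-type counts per kb of exon with DMSO and 7.01% ± 0.293 with DAPT (SD, n = 2). This difference of 1.33 points was 2.10 points from counts without length and 3.32 points per kb of the longest coding transcript. The exact permutation test over the 4 libraries gave the *Ccnd3* share per kb of exon a 2-sided p of 0.333, the smallest that 2 against 2 libraries allow. Over the 9 shares tested in all families, the adjusted p was 0.429 for 7 and 0.667 for *Ccnd1* and *Ccnd2*.

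The kinases that D-type cyclins bind were singled out after their values were seen, and neither was called lower. *Cdk4* was at 64.7 and 64.8 CPM with DMSO and at 74.5 and 74.2 CPM with DAPT, with a log2 fold change of 0.20 (FDR 0.0269). *Cdk6* was at 52.2 and 49.9 CPM with DMSO and at 48.8 and 51.2 CPM with DAPT (log2 fold change -0.03, FDR 0.783), and its groups overlapped.

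The E-type cyclins, which both pair with Cdk2 at the entry into S phase, went in opposite directions. *Ccne1* (7:38097984-38107534, minus strand) had 539 and 668 counts in the DMSO libraries, compared with 1138 and 1010 in the DAPT libraries. In CPM this was 12.5 and 11.8 against 23.5 and 20.5, so that both DAPT libraries were far above both DMSO libraries. Its log2 fold change was 0.86 (SE 0.0941, 95% interval 0.66 to 1.05, FDR 3.72e-07), or 1.81-fold higher.

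*Ccne2* (4:11191351-11204779, plus strand) had 244 and 254 counts in the DMSO libraries, compared with 71 and 86 in the DAPT libraries. It was at 5.67 and 4.48 CPM with DMSO and at 1.47 and 1.74 CPM with DAPT, and the groups were far apart although the counts were small. Its log2 fold change of -1.65 (SE 0.169, 95% interval -2.00 to -1.30, FDR 1.47e-07) was the largest of the 10 and also the least precise. The interval overlapped that of *Ccnb2* (-1.76 to -1.34). Leaving out 1 library at a time moved *Ccne2* between -1.82 and -1.48, and only the value without DMSO replicate 1 was inside the 1.5 limit. In that fit *Ccnb2* had the larger change, at -1.52.

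The ratio of *Ccne1* to *Ccne2* counts, which does not depend on library scaling, was 2.21 and 2.63 with DMSO and 16.03 and 11.7 with DAPT. Per kb of exon, *Ccne1* was 76.0% ± 2.25 of the E-type counts with DMSO and 94.7% ± 1.10 with DAPT (SD, n = 2; exact permutation p = 0.333, the smallest possible). The E-type sum in CPM was 17.2 ± 1.38 with DMSO and 23.6 ± 1.99 with DAPT, or 37.0% higher, the 1 family sum that was higher with DAPT.

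**Figure D2:**
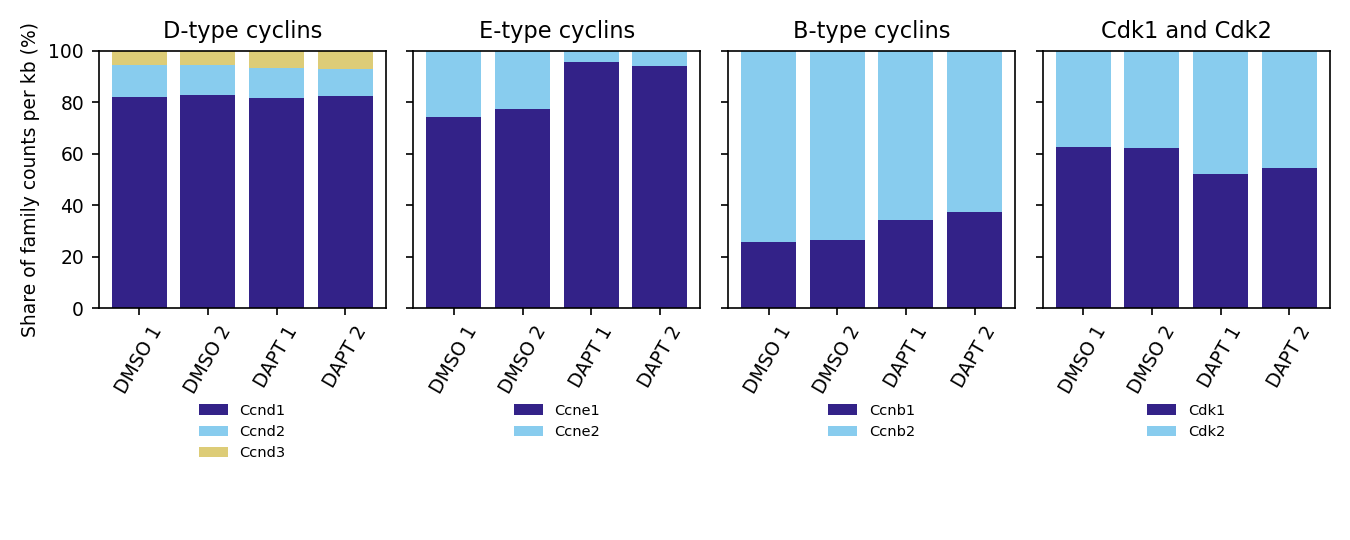
Share of each gene in the counts per kb of its family in each library, in percent, for D-type cyclins, E-type cyclins, B-type cyclins and the pair of CDKs. Each stacked bar is 1 library, and the dark part is *Ccnd1*, *Ccne1*, *Ccnb1* or *Cdk1*. The dark part is nearly the same in all 4 libraries for D-type cyclins (82.4% and 82.0% on average), larger with DAPT for E-type (76.0% and 94.7%) and B-type (26.1% and 35.9%) cyclins, and smaller with DAPT for *Cdk1* (62.4% and 53.3%).

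*Cdk2* (10:128697939-128705031, minus strand), the kinase of cyclins E and A, was at 22.7 and 21.9 CPM with DMSO and at 18.3 and 18.1 CPM with DAPT. The replicates nearly coincided and the groups stood apart by a small step. Its log2 fold change was -0.29 (SE 0.0831, FDR 0.00788), and the FDR was 0.0544 without DMSO replicate 1, where the log2 fold change was -0.27.

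The cyclins and the kinase of S phase, G2 and mitosis were all lower, with *Ccna2* and *Ccnb2* past the intervals of *Cdk2* and of each D-type cyclin, whereas the intervals of *Ccnb1* and *Cdk1* overlapped those of *Ccnd1* and *Ccnd2*. *Ccna2* (3:36564865-36572150, minus strand), which binds Cdk2 in S phase and Cdk1 in G2, was at 25.3 and 23.2 CPM with DMSO and at 8.96 and 9.78 CPM with DAPT. The DAPT libraries were 2.58-fold lower, a log2 fold change of -1.37 (SE 0.0934, 95% interval -1.56 to -1.17, FDR 5.42e-10).

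*Ccnb2* (9:70407692-70421547, minus strand), a mitotic cyclin found at the Golgi, was at 17.6 and 16.9 CPM with DMSO and at 5.79 and 6.01 CPM with DAPT. Its log2 fold change was -1.55 (SE 0.0996, 95% interval -1.76 to -1.34, FDR 2.49e-10), or 2.93-fold lower, and stayed between -1.58 and -1.52 when 1 library was left out. It thus remained past the 1.5 limit without any one of the 4 libraries.

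*Ccnb1* (13:100778650-100786570, minus strand), the main mitotic cyclin, was at 16.9 and 16.8 CPM with DMSO and at 8.32 and 9.92 CPM with DAPT. The log2 fold change of *Ccnb1* was -0.88 (SE 0.101, 95% interval -1.09 to -0.67, FDR 6.16e-07), and its interval did not reach that of *Ccnb2*. The ratio of *Ccnb1* to *Ccnb2* counts was 0.958 and 0.990 with DMSO and 1.44 and 1.65 with DAPT. Per kb of exon, *Ccnb1* made up 26.1% ± 0.445 of the B-type counts with DMSO and 35.9% ± 2.26 with DAPT (SD, n = 2), with an exact permutation p of 0.333, the smallest possible. The B-type sum was 34.1 ± 0.593 CPM with DMSO and 15.02 ± 1.29 CPM with DAPT, or 56.0% lower.

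*Cdk1* (10:69335146-69352938, minus strand), the mitotic kinase, was at 30.0 and 28.8 CPM with DMSO and at 15.8 and 17.2 CPM with DAPT, a log2 fold change of -0.83 (SE 0.0843, FDR 1.32e-07). The count ratio of *Ccnb1* to *Cdk1* was 0.563 and 0.583 with DMSO and 0.528 and 0.576 with DAPT, and the groups overlapped. In contrast, the ratio of *Ccnb2* to *Cdk1* was 0.587 and 0.589 with DMSO and 0.367 and 0.349 with DAPT, and that of *Ccna2* to *Cdk1* was 0.843 and 0.805 against 0.568 and 0.568. The count ratio of *Cdk1* to *Cdk2* was 1.32 and 1.31 with DMSO and 0.861 and 0.952 with DAPT, and so the balance of this pair moved away from *Cdk1*.

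**Figure D3:**
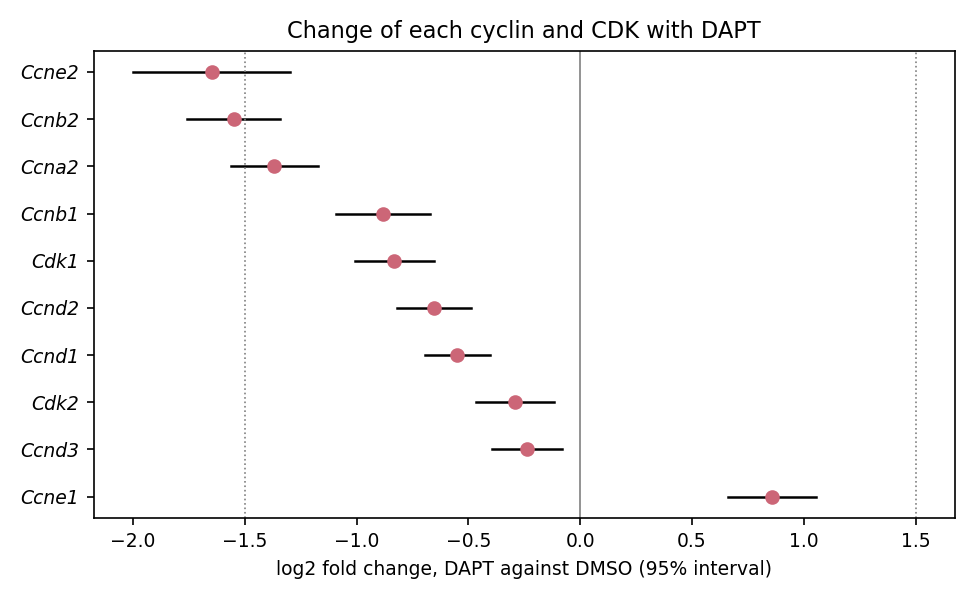
log2 fold change of each gene, DAPT against DMSO, with its 95% interval from the edgeR fit. The solid line is at 0 and the dotted lines are at an absolute log2 fold change of 1.5. *Ccne2* (-1.65) and *Ccnb2* (-1.55) lie past the dotted line, *Ccne1* (0.86) is the 1 gene on the right, and *Cdk2* (-0.29) and *Ccnd3* (-0.24) are nearest to 0.

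Levels of different genes were compared per kb of exon, as mean CPM per kb. *Ccnd1* was highest by far, at 66.2 with DMSO and 45.2 with DAPT, and *Ccne2* was lowest, at 1.45 and 0.459. With DMSO, *Ccnb2* (11.3) and *Ccnd2* (9.53) followed *Ccnd1*. *Cdk1* (5.96) and *Ccna2* (5.94) did not differ beyond their spread, and neither did *Ccne1* (4.56) and *Ccnd3* (4.55). *Ccnb1* (3.99) and *Cdk2* (3.59) came next.

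With DAPT the order was *Ccnd1*, *Ccne1* (8.26), *Ccnd2* (6.06), *Ccnd3* (3.86), *Ccnb2* (3.86), *Cdk1* (3.34), *Cdk2* (2.93), *Ccna2* (2.29), *Ccnb1* (2.16) and *Ccne2*. The ranges of *Ccnd3* and *Ccnb2* overlapped, as did those of *Ccna2* and *Ccnb1*. *Ccne1* thus moved from rank 6 to rank 2. Per kb of the longest coding transcript, it moved from rank 9 to rank 3. *Ccnd1* stayed first and *Ccne2* last on both lengths, and *Ccnd2* was at rank 3 with DMSO on both. The other places depended on the length used.

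Exons of 6 of the 10 genes overlap a gene on the other strand. The libraries were made with a kit that marks strand, but the strand setting of the counting is not given in the sources used here. *Ccne2* shares 609 exon bases with *Ints8*, which had 959 and 1050 counts in the DMSO libraries, compared with 865 and 806 in the DAPT libraries. *Ccna2* shares 510 bases with *Exosc9*, which had 1307 and 1708 counts in the DMSO libraries, compared with 1680 and 1663 in the DAPT libraries. *Ccnd1* shares 1100 bases with *LTO1* and *Ccnd3* 361 with *Bysl*, while *Ccnd2* overlaps a pair of low-count antisense genes and *Cdk2* shares 34 bases with *Pmel*. The other 4 genes, *Ccnb1*, *Ccnb2*, *Ccne1* and *Cdk1*, have no exon base in common with a gene on the other strand, and all 4 were called when only such genes were tested.

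Over all tested genes, 21.9% were lower and 19.0% higher with DAPT, and these shares stand beside the counts of each list below. Of 12 regulators of CDK activity, 7 fell, none rose and 5 did not pass the test, with a median log2 fold change of -0.32. They act on CDKs in either direction or on their substrates and regulators. DESeq2 called 5 of these 12 genes. The list holds Cdc25 phosphatases, inhibitory kinases and Cks subunits of CDKs, together with *Plk1* and its activator *Bora*, and with *Mastl* and the phosphatase inhibitors *Ensa* and *Arpp19* downstream of it. The last 2 and *Bora* did not pass the test (FDR 0.210, 0.166 and 0.136). *Plk1*, a mitotic kinase that promotes Cdk1 activation, was at 7.04 and 7.83 CPM with DMSO and at 2.36 and 2.86 CPM with DAPT (log2 fold change -1.51, FDR 3.07e-08). *Cdc25c*, a phosphatase that activates Cdk1, was at 2.18 and 2.04 CPM against 0.683 and 0.790 CPM (-1.51, FDR 1.21e-05). *Mastl*, the Greatwall kinase that protects Cdk1 substrates from dephosphorylation, had a log2 fold change of -1.05 (FDR 2.88e-06). Of the inhibitory kinases, *Pkmyt1* fell (-0.27, FDR 0.0479) and *Wee1* was at -0.37 (FDR 0.0751). These 2 and *Bora*, *Ensa* and *Arpp19* were singled out after their values were seen.

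The CDK inhibitors were divided, with 2 of 7 lower, 3 higher, 2 not past the test and a median of -0.05 (4 called with DESeq2). *Cdkn2c*, which encodes the Cdk4 and Cdk6 inhibitor p18, fell from 16.8 and 16.6 CPM to 8.48 and 8.97 CPM (log2 fold change -0.94, FDR 1.21e-07). *Cdkn1c* (p57) rose with a log2 fold change of 0.87 (FDR 0.00368) and *Cdkn2b* (p15) with one of 0.80 (FDR 0.0121), both at low levels of at most 1.80 CPM. *Cdkn1a* (p21), singled out after its values were seen, was at 2203 and 2136 CPM with DMSO and at 1983 and 1860 CPM with DAPT (-0.18, FDR 0.0663). *Cdkn1b* (p27) fell from a mean of 32.2 CPM with DMSO to 23.2 CPM with DAPT (-0.48, FDR 6.75e-05). *Cdkn2a* rose (0.65, FDR 0.00111) and reached 4.90 CPM in DAPT replicate 2. *Cdkn1b* and *Cdkn2a* were also singled out after their values were seen.

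The transcription factors that act on cyclin genes, namely E2F and DP factors, pocket proteins, MuvB subunits, *Mybl2* and *Foxm1*, had 11 of 20 genes lower, none higher and 9 not past the test, with a median of -0.34. *E2f7*, a repressor of E2F targets, was at 3.51 and 1.96 CPM with DMSO and at 0.952 and 0.830 CPM with DAPT (-1.59, FDR 4.18e-05). Its relative *E2f8* fell by 0.99 on the log2 scale (FDR 5.34e-08), and *Mybl2*, which joins MuvB to activate late genes, by 0.92 (FDR 0.000378). The activator *E2f1*, singled out after its values were seen, had a log2 fold change of -0.18 (FDR 0.0910). Also singled out after their values were seen, *E2f2* (-0.52, FDR 0.000307) and *Foxm1* (-0.86, FDR 1.39e-06) fell, while *E2f3* did not pass the test (-0.01, FDR 0.948).

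Of 28 genes for cyclin turnover by the APC/C and SCF ubiquitin ligases, 6 fell, 2 rose and 20 did not pass the test. The share that fell was close to the 21.9% of all tested genes. The median was -0.0039, and DESeq2 called 6. *Cdc20*, the mitotic activator of the APC/C, was at 9.20 and 9.62 CPM with DMSO and at 2.75 and 4.19 CPM with DAPT (-1.44, FDR 1.35e-07). *Ube2c*, the ubiquitin-conjugating enzyme of the APC/C, fell by 1.30 on the log2 scale (FDR 1.42e-08), and *Fbxo5*, an APC/C inhibitor, by 0.56 (FDR 0.0314).

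The other cyclins and CDKs of the cell cycle and atypical members had 5 lower, 4 higher and 7 not past the test among 16 tested of 20 listed. Their median was 0.10, and DESeq2 called 8 where edgeR called 9. *Cdk17* (-0.51, FDR 3.58e-05), *Ccnf* (-0.45, FDR 0.00448) and *Ccng1* (-0.41, FDR 0.000226) changed most among those of at least 1 CPM. Cyclins and CDKs of transcription had 4 lower, 2 higher and 9 not past the test among 15, with a median of 0.0015. The share that was lower was not far from the 21.9% of all tested genes. This list includes *Cdk7*, *Ccnh* and *Mnat1*, which also form the kinase that activates the cell cycle CDKs, and none of these 3 passed the test (FDR 0.153, 0.995 and 0.543). They were singled out after their values were seen. The largest log2 fold changes were those of *Cdk19*, a kinase of the Mediator complex (-0.79, FDR 7.62e-08), *Cdk12*, a kinase of RNA polymerase II (-0.73, FDR 7.42e-07), and *Ccnt1*, a cyclin of P-TEFb (-0.27, FDR 0.00993). Of 24 ribosomal protein genes, taken for comparison, 0 passed the edgeR FDR, 2 had an unadjusted p under 0.05 and 1 passed with DESeq2, and their median was 0.03.

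**Figure D4:**
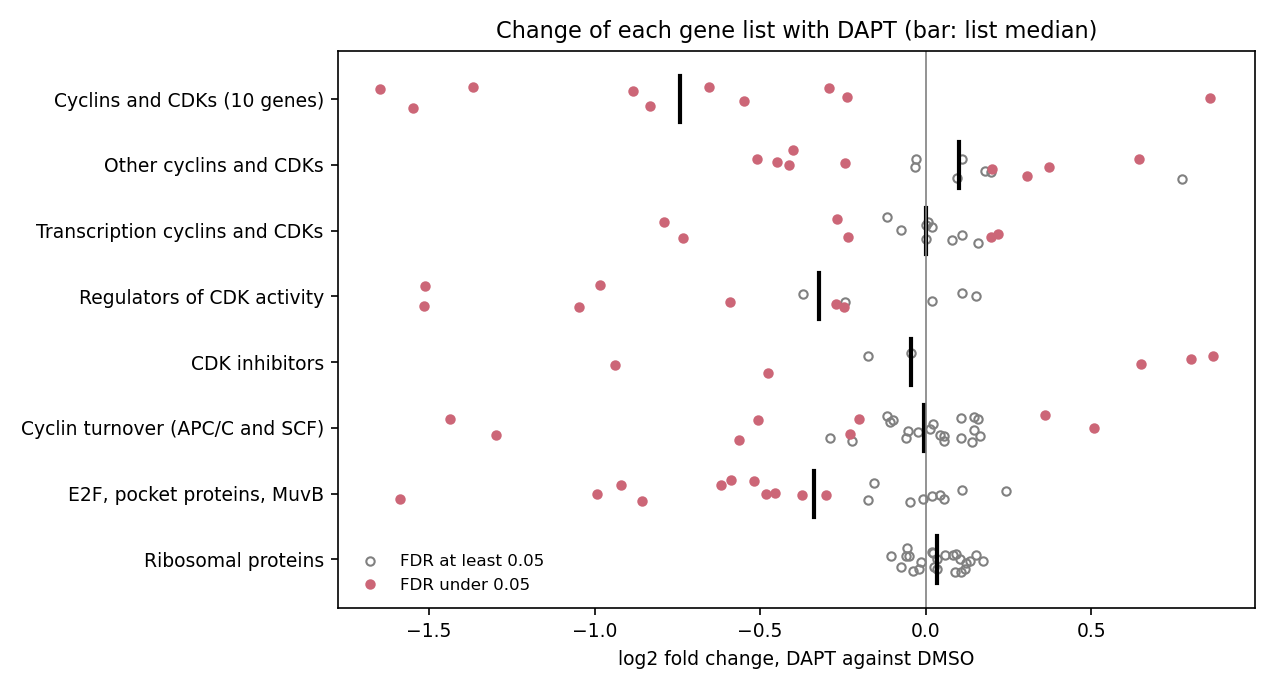
log2 fold change, DAPT against DMSO, of each tested gene of the 8 lists (1 point per gene, filled at an FDR under 0.05), with a bar at the median of the list. The medians are -0.74 for the 10 cyclins and CDKs, -0.32 for the 12 regulators of CDK activity and -0.34 for E2F, pocket protein and MuvB genes, and lie between -0.05 and 0.10 for the other 5 lists.

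Among markers of other cells that a marrow culture can hold, *Cd34*, *Csf3r* and *Kdr* made up most of their lists and moved with DAPT. The 10 genes of myeloid progenitors, which divide, summed to 11.1 and 12.3 CPM with DMSO and to 3.93 and 3.97 CPM with DAPT, mostly from *Cd34*. *Cd34* fell by 2.05 on the log2 scale (FDR 1.66e-10) and *Kit* rose by 0.83 (FDR 0.0233). Of the 3 tested genes of this list, edgeR called 2 and DESeq2 called 1. The granule genes *Elane* and *Prtn3* had no count in any library, and 9 of the 10 genes were under 1 CPM on average.

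The neutrophil list summed to 61.7 and 64.2 CPM with DMSO and to 110 and 116 CPM with DAPT, nearly all from *Csf3r*, with *Retnlg* at 0 and 9 of 10 genes under 1 CPM. The stromal and endothelial list summed to 13.4 and 13.4 CPM against 35.0 and 32.5 CPM, mostly from *Kdr*, with *Col3a1* at 0 and 8 of 10 genes under 1 CPM. *Kdr* was the 1 gene of this list that rose, while *Pecam1* (log2 fold change -1.01, FDR 0.00211) and *Cxcl12* (-0.84, FDR 0.0257) fell. Of the 4 tested genes of this list, edgeR called 3 and DESeq2 called 2. The 12 lymphocyte genes summed to between 0.881 and 1.61 CPM, with *Cd3g* and *Ncr1* at 0. The part of these cells and of the lower macrophage markers in the changes of cyclins and CDKs was not tested.

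The genes most like *Ccna2* and *Ccnd1* were sought among 7581 genes with a mean of at least 10 CPM, by the root mean square difference of their centred log2 CPM over the 4 libraries. The nearest to *Ccna2* were *Ephx1* (0.0249), *Srgap3* (0.0329), *Cenpe* (0.0361), *Sla* (0.0373) and *Arap3* (0.0405), and 25 genes were within 0.1. The nearest to *Ccnd1* were *Srf* (0.00963), *Ctbp2* (0.0116), *Mettl7a1* (0.0130), *Abl2* (0.0153) and *Hivep3* (0.0159), and 578 genes were within 0.1. This measure rests on 4 libraries and says nothing of shared function or control.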

How the data were processed

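BMMs were sequenced by the authors from strand-specific poly(A) libraries. Per the methods, reads were trimmed with Trimmomatic, aligned with STAR (2.5.0a in the submitters' processing notes, which also list HTSeq, Picard and bcl2fastq and name both mm9 and mm10), and counted with HTSeq. The deposited values are raw counts per gene, without normalization. The table has 16 columns, 4 per replicate. The labels do not define them, and they were summed to 4 libraries because they differed by about the sampling noise (mean chi-square per degree of freedom 1.01 to 1.03, against 14.7 and 16.6 between replicates). Overnight incubation with GSI before activation is stated in the methods, whereas legends of other experiments give a shorter time. All 16 columns were used.

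From these counts, edgeR 4.0.16 in R 4.3.3 was run (filterByExpr, TMM, glmQLFit and glmQLFTest) with group as the only factor. The p-values of 13211 genes were adjusted by the Benjamini-Hochberg method. The log2 fold change divided by the square root of F gave its standard error, intervals were 95% intervals from the same fit, and the thresholds were an FDR of 0.05 and an absolute log2 fold change of 1.5. CPM used TMM-adjusted library sizes. Shares were compared by exact permutation over libraries. The common biological coefficient of variation was 0.0579. Positions and exon lengths came from GENCODE M21 on GRCm38, which held 98.9% of the gene IDs, and promoters from RefSeq. Protein sequences were not analysed here.

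The 10 genes, the gene lists and the tests were chosen with earlier results of these data known. Named were the 10 genes, up to 3 genes of each list with the largest change at an FDR under 0.05 and a mean of at least 1 CPM, the 5 genes most like *Ccna2* and *Ccnd1*, and further genes that were singled out later and are marked so. Marker genes are named with their sums. The alternatives tried were factors by RLE or none, DESeq2 1.42.0, other filters on low counts, a replicate block, the 16 columns as samples, the likelihood ratio test, genes without exons on the other strand, each library left out, and other lengths for shares. In counts simulated for this comparison over 13024 genes, 84.8% of 197 genes changed 2-fold were called, against 0.0858% of unchanged genes. Far fewer genes were changed in the simulation than the 40.8% called in the data. The FDR cutoff depends on that share, so neither rate carries over to the data.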

Additional observations from a re-analysis of the deposited data

How the results depend on the processing

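The 10 genes kept their direction in all 124 refits under the 13 alternatives, and 121 kept their side of the FDR of 0.05. The 3 that did not were *Cdk2* without DMSO replicate 1 (log2 fold change -0.27, FDR 0.0544) and *Ccnd3* without DMSO replicate 2 (-0.23, FDR 0.0778) or without DAPT replicate 1 (-0.22, FDR 0.0610). Leaving out 1 library gave 9 to 10 of these genes past the FDR and 1 to 2 past both thresholds (1 without DMSO replicate 1, where *Ccne2* was at -1.48), and over all genes 4162 to 4978 past the FDR and 399 to 436 past both. Of all genes, 154 instead of 385 passed both thresholds with at least 10 counts in every library, 178 with the 16 columns as separate samples and 179 among genes without exons on the other strand. Among the latter 8976 genes 3571 passed the FDR, and only 4 of the 10 genes were among those tested, of which 4 passed the FDR and 1 both thresholds. DESeq2 gave 4033 genes past the FDR and 313 past both, and all 10 genes. With the replicate number as a block, 6444 genes passed the FDR and 389 both, and the 10 genes remained called. The difference between replicates 1 and 2 correlated between the groups at 0.155 over all tested genes and at 0.249 over those with a mean of at least 10 CPM, but with 2 pairs and no label that ties the numbers, they were not taken as pairs. From counts without length, the share of *Ccne1* among E-type cyclins was 22.5 points higher with DAPT, against 18.7 points per kb of exon, and per kb of the longest coding transcript, chosen after the data were seen, that of *Ccnd1* among D-type cyclins was 2.12 points lower (-2.12), against -0.43. That of *Ccnd3* was 2.10 points higher from counts and 3.32 points higher per kb of the longest coding transcript, against 1.33. The differences in share of *Ccnb1* (9.75 points) and *Cdk1* (-9.12 points) moved by less than the larger SD of the groups, that with DAPT (2.26 and 1.77 points), but by more than the SD with DMSO (0.445 and 0.132 points). The depth allowed 3 counts per library to be seen, and all 10 genes had at least 71.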
